A study of Mus musculus with 5 samples.

Results

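The ADAM genes encode proteins that carry a disintegrin and a metalloproteinase domain, most of them anchored in the membrane by a single helix. In the table of counts, 33 of 78334 gene identifiers had a symbol made of Adam, a number and at most 1 letter, and these 33 genes were taken as the family; the related secreted Adamts proteases were left out. They were sorted by where each gene is known to act into 2 epididymal members, 20 sperm and testis members, 8 broadly expressed members and 3 neural members without a working protease site. The study set out the transcriptome of visceral adipose tissue of male C57BL/6 mice in obesity induced by diet, with and without resveratrol, a polyphenol of plants. It held 1 control, 2 obesity and 2 resveratrol libraries. Mice were 8 weeks old when the diets began, and over the next 8 weeks the control mice ate standard chow, whereas fat supplied 60% of the energy eaten by both other groups. From 16 weeks of age, control and obesity mice were given vehicle through a gastric tube daily over 28 days, and resveratrol mice were given resveratrol at 2.25 mg per kg in the same way. The labels name neither the visceral depot nor the separate animals behind 2 libraries of a group, so the spread between libraries may be technical.

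ADAM proteases cut the outer parts of other membrane proteins and release them, a step called shedding. ADAM10 and ADAM17 are the best known of these sheddases, and they release Notch fragments, tumour necrosis factor, its receptors and ligands of the epidermal growth factor receptor. Sperm ADAMs work in another way: they mature as complexes on the surface of the sperm cell in the testis and epididymis, and several are needed for sperm to pass into the oviduct and bind the egg coat. In fat, macrophages, stromal cells, vessels and adipocytes all carry broadly expressed ADAMs.

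Libraries held 19540961 to 27026597 counts. Levels are given as CPM, counts of a gene per 1000000 counts of the library with totals scaled by the trimmed mean of M values, and a floor of 3 counts in a library stood at 0.105 to 0.157 CPM. Markers of the labelled tissue were present in every library, but the sum over 10 adipocyte markers was 463.1 CPM for the control library, 5945 CPM for resveratrol library 1 and 22093 to 24063 CPM for the other 3. For 11 epididymis markers the sum was 58087 CPM in control, with none of them at 0. They summed to 17.06 CPM in obesity library 1 with 1 at 0, to 0.0952 CPM in obesity library 2 with 10 at 0, and to 0 in resveratrol library 2. In resveratrol library 1 they summed to 3398 CPM, of which Crisp1, an epididymal secretory protein, made 3397 CPM and 5 markers were at 0. The 8 smooth muscle markers summed to 47505 CPM in resveratrol library 1 and to 372.7 to 2345 CPM in the other 4. The control group was a single library, so its diet and whatever else sets that library apart cannot be told apart. In bulk tissue, fewer cells of a type and less RNA per cell cannot be told apart either.

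No ADAM gene passed the test in any comparison, and neither did any of the 24779 genes tested, so that the share called was 0% in each. The test was edgeR's quasi-likelihood test with Benjamini-Hochberg adjustment at 0.05, on a fit of all 5 libraries. The smallest adjusted p over all genes was 0.0999 for obesity against control, 0.899 for resveratrol against obesity and 0.134 for resveratrol against control. Of the 33 members, 22 passed the filter on low counts and were tested. At an unadjusted p under 0.05, edgeR counted 5 members higher in obesity than in control, against 12.6% of all genes tested, and 2 lower, against 11.7%. Between resveratrol and obesity it counted 1 member higher, against 1.92%, and 2 lower, against 0.428%. The 2 lower members were Adam2 and Adam3, low genes with 11 and 2 counts summed over the resveratrol libraries. DESeq2 on the same genes called 6 members between obesity and control, against 18.3% of all genes: Adam8, Adam9, Adam12, Adam19 and Adam23 higher and Adam7 lower. Between resveratrol and obesity DESeq2 called 0 members, against 0.884% of all genes. Limma-voom called 0 members in every comparison, and 0.323% of all genes between resveratrol and control. Without the filter on low counts edgeR called Adam19 and Adam23 between obesity and control, against 5.92% of all genes, and 0 members between resveratrol and obesity, against 0.0574%. The differences below are therefore measured values, given with their standard errors, and none is a call by the main test.

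Detection split the family by class only in part. All 8 broadly expressed and all 3 neural members had a count in every library. So did the sperm and testis members Adam1a, Adam1b, Adam2, Adam3, Adam4, Adam5 and Adam32. Of the 20 sperm and testis members, 6 stood at 0 counts in all 5 libraries: Adam26a, Adam26b, Adam29, Adam30, Adam34 and Adam39. Adam6a, Adam6b, Adam20, Adam21, Adam24 and Adam25 had counts but stayed below 1 CPM everywhere, and the largest count of any of them in a library was 13. Adam18, Adam24 and Adam25 had counts in the control library alone, at 31, 3 and 8 counts. The testis gene Adam34l, which the table lists under its older name Gm5346 and the symbol rule does not match, was at 0 counts in all libraries. In the GENCODE M21 annotation 13 of the 20 sperm and testis members had at most 2 exons. Broadly expressed members had 16 to 24 exons, and the sperm and testis members Adam2, Adam3, Adam5, Adam18 and Adam32 had 20 to 22. Of the sperm and testis members at 1 CPM or more in a library, Adam1b and Adam4 had 1 exon each.

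**Figure D1:**
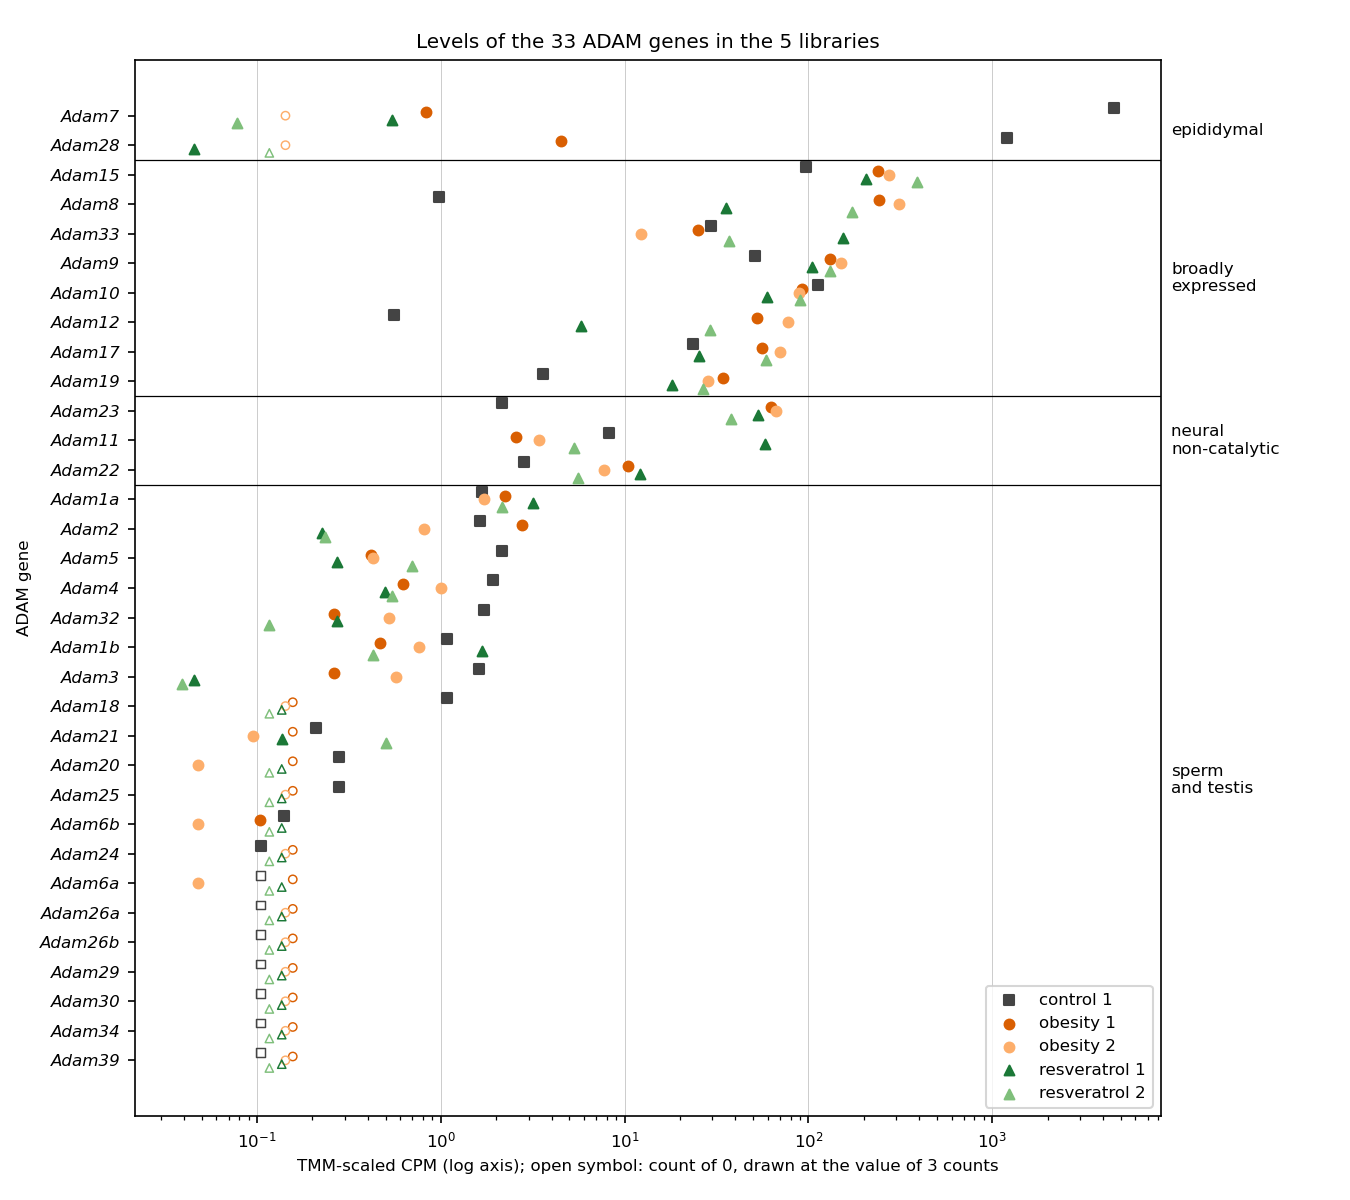
CPM on a logarithmic axis for all 33 ADAM genes, 1 point per library, with genes grouped by class and zeros drawn at the floor. The points for Adam7 and Adam28 in the control library lie at 4613 and 1196 CPM, and their points in the other 4 libraries lie at or below 4.487 CPM.

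The epididymal pair was abundant in 1 library of 5. Adam7 (ENSMUSG00000022056) encodes a protein that the epididymal epithelium makes and passes on to maturing sperm. Its counts were 132286 in the control library, 16 and 0 in the obesity libraries, and 12 and 2 in the resveratrol libraries. In CPM these were 4613 (exact Poisson 95% interval 4588 to 4638), 0.835, 0, 0.545 and 0.0778, so the control library alone was high and the other groups overlapped each other. The gene ranked 16 among all genes in the control library by CPM. Adam28 (ENSMUSG00000014725), which the epididymis and lymphocytes are known to express, had 34303 counts in the control library, 86 and 0 in obesity and 1 and 0 in resveratrol. Its CPM were 1196 (1184 to 1209), 4.487, 0, 0.0454 and 0, and it ranked 72 in the control library. The fitted log2 difference between obesity and control was −13.43 with a standard error of 2.51 for Adam7 (edgeR adjusted p = 0.177) and −9.06 with a standard error of 2.55 for Adam28 (edgeR adjusted p = 0.182).

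The ratio of Adam7 to Adam28 counts was not the same where both were found. It was 3.86 (exact 95% interval 3.81 to 3.90) in the control library and 0.186 (0.102 to 0.320) in obesity library 1, intervals that cover counting error only. Resveratrol library 1, in which Crisp1 was high, held 12 counts of Adam7 and 1 of Adam28. The epididymis markers were high in the library in which Adam7 and Adam28 were high. Summed over 6 genes, B cell markers came to 0.9067 CPM in control, 5.739 and 5.57 in obesity and 6.269 and 32.71 in resveratrol. The part of either cell type in the values of Adam7 and Adam28 was not tested.

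Sperm and testis members were low in every library, and summed over all 20 they came to 13.88 CPM in control, 7.147 and 6.046 CPM in obesity and 6.315 and 4.707 CPM in resveratrol. Of the 9 that were tested, 5 were highest in the control library: Adam3, Adam4, Adam5, Adam18 and Adam32. A low gene could pass the filter through that library alone, as Adam18 did, so this count says nothing of the 20 as a class. The 12 testis germ cell markers added up to 195.6 CPM in control with Prm1 and Spaca1 at 0. They added up to 7.0 to 13.8 CPM in the others with 2 to 8 at 0. Of those sums Spaca1 alone made 8.034 and 10.76 CPM in obesity and 1.545 and 6.807 CPM in resveratrol. The part of these markers in the levels of sperm ADAMs was not tested.

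Adam1a and Adam1b encode alternative alpha subunits of fertilin, and Adam2 its beta subunit. Adam1a measured 1.674 CPM in control, 2.243 and 1.714 in obesity and 3.18 and 2.139 in resveratrol, lowest in control with obesity and resveratrol overlapping. Adam1a shares exon bases with Tmem116 on the opposite strand and with Mapkapk5, and since the strand setting of the counting is not given in the sources used here its counts are uncertain. Adam1b measured 1.081 CPM in control, 0.4695 and 0.7617 in obesity and 1.681 and 0.4279 in resveratrol, and the groups that received the fatty diet overlapped. Adam2 measured 1.639 CPM in control, 2.765 and 0.8093 in obesity and 0.2271 and 0.2334 in resveratrol. Both resveratrol libraries lay below both obesity libraries for Adam2, a log2 difference of −2.93 with a standard error of 0.944 (edgeR adjusted p = 0.899).

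Adam3, which encodes cyritestin, a protein sperm need to bind the egg coat, measured 1.604 CPM in control, 0.2609 and 0.5713 in obesity and 0.0454 and 0.0389 in resveratrol. The resveratrol values rest on 1 count in each library, and summed counts were 38.3-fold lower than in control, with an exact 95% interval of 10 to 325. Adam4 measured 1.918 CPM in control, 0.626 and 0.9997 in obesity and 0.4997 and 0.5446 in resveratrol, highest in control and lowest in resveratrol. Adam5 measured 2.162 CPM in control and 0.2726 to 0.7002 CPM in the other 4 libraries, whose groups overlapped. Adam32 was likewise highest in control at 1.709 CPM and stood at 0.1167 to 0.5237 CPM elsewhere. Adam18 had 1.081 CPM in control and 0 counts in the other 4 libraries. In RefSeq's order of named genes on chromosome 8, Adam18, Adam3, Adam5, Adam32 and the broadly expressed Adam9 follow each other in a row. The first 4 of these neighbours were highest in the control library and Adam9 was lowest there.

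The broadly expressed members made up most ADAM counts outside the control library. They held 90.85% and 92.37% of ADAM counts in obesity and 82.42% and 94.6% in resveratrol, but 5.177% in control, where the epididymal pair held 94.38% (Wilson 95% interval 94.27 to 94.49%). As CPM, which remain shares of a scaled library total, the 8 genes summed to 318.6 in control. They summed to 873.3 and 1015 CPM in obesity and 609.3 and 935.1 CPM in resveratrol. Of the 8, 6 were higher in obesity than in control and 2 lower, with a median log2 difference of 1.44, beside −0.10 over all genes tested. Between resveratrol and obesity 2 were higher and 6 lower, with a median of −0.38 beside 0.05 over all genes; without resveratrol library 1 that median was −0.09.

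**Figure D2:**
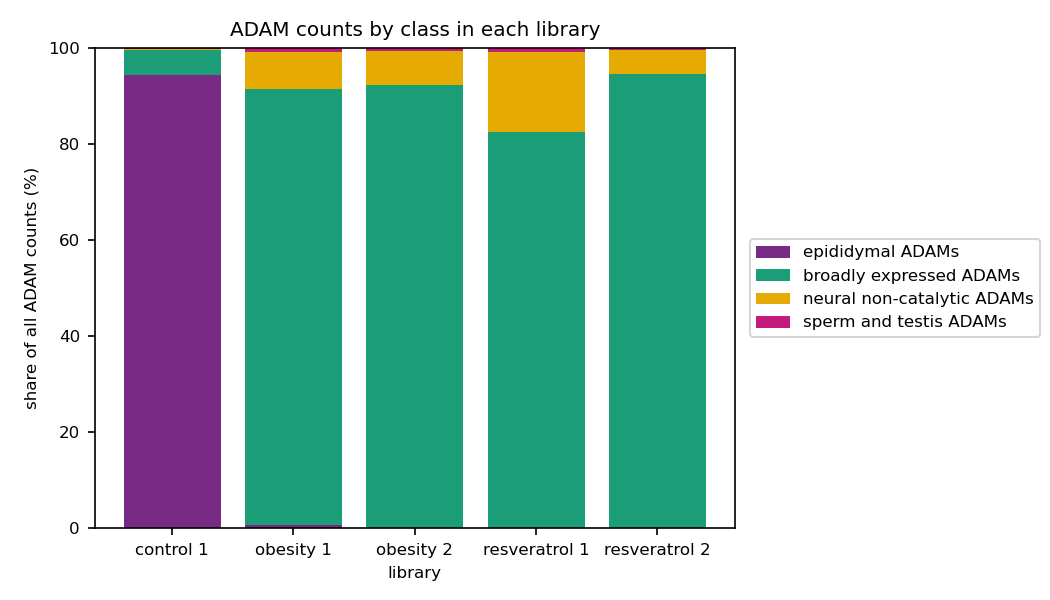
Share of all ADAM counts held by each class, in percent, as 1 stacked bar per library on an axis from 0. The epididymal pair fills 94.38% of the control bar, and broadly expressed members fill 82.42 to 94.6% of the other 4.

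Members of this class were set side by side per length, as CPM per kilobase of exon. In the control library Adam10 led the class at 22.9 CPM per kb, followed by Adam15 at 15.8 and Adam9 at 12.4, while Adam7 stood at 1065 and Adam28 at 130. In both obesity libraries Adam8 led at 52.4 and 67.2 CPM per kb, then Adam15 at 39 and 44.9, Adam9 at 31.8 and 36.7 and Adam10 at 18.7 and 18.1. Both obesity libraries thus gave these 4 genes in the same order. In resveratrol library 2 the order of Adam15 and Adam8 was the other way round, at 63.4 and 37.3 CPM per kb. Resveratrol library 1 had Adam15 at 33.6, Adam33 at 28.6, Adam9 at 25.4 and Adam10 at 12.1 CPM per kb, with Adam8 at 7.63.

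Of the main sheddases, Adam10 (ENSMUSG00000054693) measured 112.7 CPM in control, 91.66 and 88.78 in obesity and 59.51 and 89.66 in resveratrol. It had the smallest difference of the class between obesity and control, −0.32 on the log2 scale with a standard error of 0.364, which is less than its error. Adam17 (ENSMUSG00000052593), the enzyme that releases tumour necrosis factor, measured 23.5 CPM in control, 55.56 and 70.03 in obesity and 25.26 and 58.39 in resveratrol. Both obesity libraries lay above control by 1.42 on the log2 scale, and resveratrol library 1 lay near control while library 2 fell within the obesity values. The ratio of Adam10 to Adam17 counts was therefore 4.8 in control, 1.65 and 1.27 in obesity and 2.36 and 1.54 in resveratrol.

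Adam8 and Adam12 had the largest differences of the class between obesity and control. Adam8 (ENSMUSG00000025473), a protease of macrophages, neutrophils and other leukocytes, measured 0.976 CPM in control (exact Poisson 95% interval 0.649 to 1.411), 243.1 and 311.7 in obesity and 35.39 and 173 in resveratrol. The obesity mean was 277.4 CPM ± 48.52 (SD, n = 2), 284-fold the control value, a log2 difference of 8.14 with a standard error of 1.54 (edgeR adjusted p = 0.178). Every library of the fatty diet lay above control, and both resveratrol libraries lay below both obesity libraries, at 12.8% and 62.4% of the obesity mean. Adam12 (ENSMUSG00000054555), known from developing muscle and from fat cell precursors, measured 0.558 CPM in control (0.319 to 0.906), 52.69 and 77.03 in obesity and 5.815 and 29.1 in resveratrol. Its log2 difference between obesity and control was 6.85 with a standard error of 1.48 (edgeR adjusted p = 0.182), a 116-fold higher level. It too was lower in both resveratrol libraries than in both obesity libraries, at 8.97% and 44.9% of the obesity mean. Without resveratrol library 1 the log2 difference between resveratrol and obesity was −0.67 for Adam8 in place of −1.41, and −1.14 for Adam12 in place of −1.89.

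Macrophage markers were low and high in much the same libraries as Adam8. The 8 markers summed to 129.5 CPM in control, 2687 and 2233 in obesity and 366.1 and 2573 in resveratrol. The median marker stood at 4.79% of its obesity mean in control, 16.2% in resveratrol library 1 and 86.4% in resveratrol library 2. Adipocyte markers stood in median at 1.84%, 25.4% and 115% in those 3 libraries. The 5 fat progenitor markers stood in median at 110%, 90.7% and 143% in the same 3 libraries, unlike Adam12. The part of macrophage, adipocyte and fat progenitor content in the levels of Adam8 and Adam12 was not tested.

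**Figure D3:**
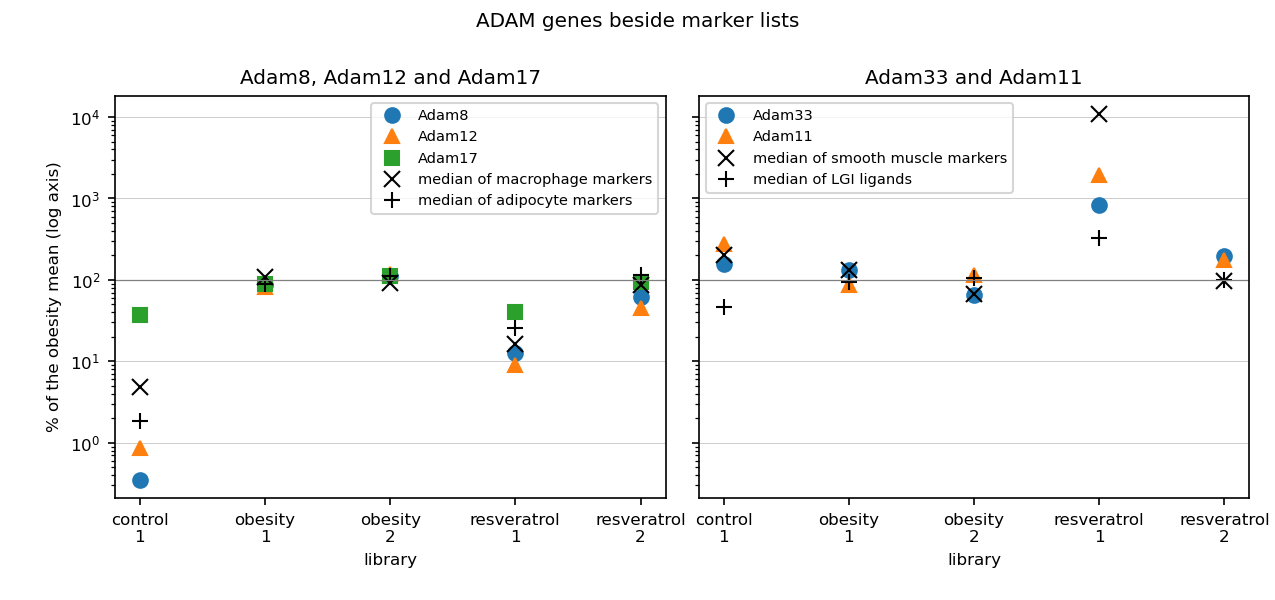
Level as a percent of the obesity mean on a logarithmic axis for selected ADAM genes and for the median of cell type marker lists, 1 point per library. In resveratrol library 1 Adam8 lies at 12.8% and the median macrophage marker at 16.2%, while Adam33 lies at 823% and the median smooth muscle marker at 10803%.

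Adam9, Adam15 and Adam19 were lowest in control. Adam9, a widely expressed sheddase also called meltrin gamma, measured 51.02 CPM in control, 131 and 151.2 in obesity and 104.7 and 131.6 in resveratrol. Adam15, which binds integrins through an RGD motif in the human protein, measured 96.84 CPM in control, 239.7 and 275.6 in obesity and 206.4 and 389.6 in resveratrol. For both genes the resveratrol and obesity libraries overlapped. The ratio of Adam9 to Adam15 counts was 0.527 in control, 0.547 and 0.549 in obesity, 0.507 in resveratrol library 1 and 0.338 in resveratrol library 2. Adam19, or meltrin beta, a sheddase of neuregulins, measured 3.592 CPM in control, 34.48 and 28.23 in obesity and 17.99 and 26.61 in resveratrol. Its log2 difference between obesity and control was 3.12 with a standard error of 0.473 (edgeR adjusted p = 0.16), and both resveratrol libraries lay below both obesity libraries. Adam8, Adam15, Adam17 and Adam19 each share exon bases with a gene on the opposite strand, and reads of such a pair cannot be told apart unless the counting used strand.

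Adam33 is known from smooth muscle cells and fibroblasts, and it measured 29.43 CPM in control, 25.15 and 12.33 in obesity and 154.3 and 37.15 in resveratrol. Both resveratrol libraries lay above both obesity libraries, by 2.35 on the log2 scale with a standard error of 0.842 (edgeR adjusted p = 0.899), and library 1 stood far above library 2. Smooth muscle markers stood in median at 10803% of their obesity mean in resveratrol library 1, at 97.2% in resveratrol library 2 and at 204% in control; their part in the Adam33 level was not tested. In resveratrol library 2, where these markers were near their obesity level, Adam33 was at 198% of its obesity mean, and without resveratrol library 1 the log2 difference was 1.00.

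The neural members ADAM11, ADAM22 and ADAM23 lack a working protease site and serve as receptors of the secreted LGI proteins at synapses and on nerve sheaths. Adam23 (ENSMUSG00000025964) measured 2.162 CPM in control, 62.5 and 66.6 in obesity and 53.2 and 37.77 in resveratrol. The obesity mean of 64.55 CPM ± 2.899 (SD, n = 2) was 29.9-fold the control value, a log2 difference of 4.90 with a standard error of 0.444 (edgeR adjusted p = 0.16). Its unadjusted p was the smallest of the 22 members in this comparison. All 4 libraries of the fatty diet lay far above control, and both resveratrol libraries lay below both obesity libraries, with a fitted log2 difference of −0.51. Adam22 measured 2.825 CPM in control, 10.43 and 7.76 in obesity and 12.08 and 5.563 in resveratrol, lowest in control with the other groups overlapping. Adam11 measured 8.23 CPM in control, 2.556 and 3.428 in obesity and 57.74 and 5.29 in resveratrol. Its difference between resveratrol and obesity, 3.39 on the log2 scale with a standard error of 1.25 (edgeR adjusted p = 0.899), rested for the most part on resveratrol library 1, which stood at 1930% of the obesity mean against 177% in library 2. Without resveratrol library 1 it was 0.83.

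**Figure D4:**
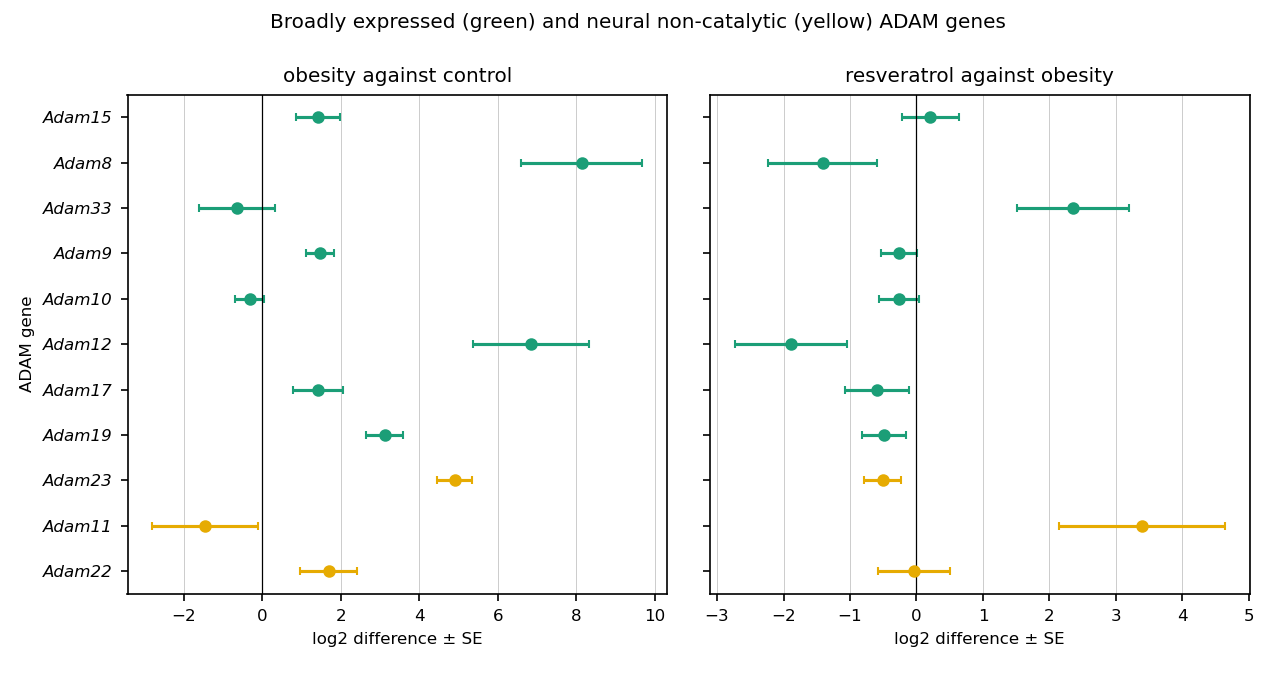
Fitted log2 differences of the broadly expressed and neural ADAM genes with bars of 1 standard error, with genes grouped by class. The panels give obesity against control and resveratrol against obesity. Adam8, Adam12 and Adam23 lie at 8.14, 6.85 and 4.90 for obesity against control.

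Windows around the start sites set the classes side by side in sequence. RefSeq's table for build GRCm38.p6 held windows of 300 bases, from 250 before to 50 after a start, for 17 members; Adam7 and Adam28 were not among them. The dinucleotide CG, which reads the same on both strands, was counted in each. It occurred in median 1 time (0 to 4) in 10 windows of sperm and testis members and 11 times (5 to 32) in 7 windows of broadly expressed members, which come from 5 genes, since Adam19 has 3. Both neural windows, of Adam22 and Adam23, held many, and all 32851 promoter windows of the table held 7 in median. Windows with at least 10 CG made up 0% of the sperm and testis set, 57.1% of the broadly expressed set and 43.5% of all windows. The windows of 4 members are shown, to set beside each other Adam10 as a sheddase found in every library, Adam23 and Adam8 with large differences between control and obesity, and Adam25 as a testis gene with 8 counts in all. They lie at chr9:70678732-70679031 on the plus strand for Adam10, chr1:63445641-63445940 on the plus strand for Adam23, chr7:139992513-139992812 on the minus strand for Adam8 and chr8:40751958-40752257 on the plus strand for Adam25. Each is written 5′ to 3′ along its gene, with every CG in capitals.
Adam10: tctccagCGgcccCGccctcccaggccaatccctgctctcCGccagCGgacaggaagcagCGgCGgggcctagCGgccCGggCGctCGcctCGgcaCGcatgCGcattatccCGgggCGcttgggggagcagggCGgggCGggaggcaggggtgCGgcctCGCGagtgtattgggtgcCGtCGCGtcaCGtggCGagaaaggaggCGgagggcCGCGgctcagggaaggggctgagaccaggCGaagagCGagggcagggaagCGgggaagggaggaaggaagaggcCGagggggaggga
Adam23: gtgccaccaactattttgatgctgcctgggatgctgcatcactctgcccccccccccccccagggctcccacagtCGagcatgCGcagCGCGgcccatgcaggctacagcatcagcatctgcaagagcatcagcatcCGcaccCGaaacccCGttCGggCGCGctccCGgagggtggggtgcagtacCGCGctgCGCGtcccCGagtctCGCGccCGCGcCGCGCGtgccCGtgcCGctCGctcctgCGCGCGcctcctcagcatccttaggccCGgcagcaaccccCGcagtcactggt
Adam8: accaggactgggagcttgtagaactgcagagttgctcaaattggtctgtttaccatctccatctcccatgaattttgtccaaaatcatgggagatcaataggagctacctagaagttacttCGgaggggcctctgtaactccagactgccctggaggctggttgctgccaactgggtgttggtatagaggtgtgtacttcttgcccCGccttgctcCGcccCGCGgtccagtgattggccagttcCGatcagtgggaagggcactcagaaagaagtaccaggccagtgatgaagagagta
Adam25: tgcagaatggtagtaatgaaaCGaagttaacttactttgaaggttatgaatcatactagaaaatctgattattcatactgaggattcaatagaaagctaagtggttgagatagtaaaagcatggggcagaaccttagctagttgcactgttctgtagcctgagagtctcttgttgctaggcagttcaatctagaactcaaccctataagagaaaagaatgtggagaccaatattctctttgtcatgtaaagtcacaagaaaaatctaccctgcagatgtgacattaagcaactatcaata
The Adam10 and Adam23 windows held 32 and 31 CG, the Adam8 window 6 and the Adam25 window 1. Adam10 and Adam23 thus had like counts of CG and unlike levels across the libraries, with Adam10 at 59.51 to 112.7 CPM and Adam23 at 2.162 to 66.6 CPM.

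Counted over the 22 tested members, both obesity libraries lay above the control library for 9, against 40.8% of all genes tested, and below it for 12, against 48.6%. The resveratrol libraries both lay above both obesity libraries for 3 members, against 16.9% of all genes, and below for 7, against 16.7%. The 3 were Adam33, Adam11 and Adam21, and the 7 were Adam2, Adam3, Adam4, Adam8, Adam12, Adam19 and Adam23. The other 12 members overlapped. Adam21 rests on few counts, 0 and 2 in the obesity libraries and 3 and 13 in the resveratrol libraries, and stayed below 1 CPM. Leaving out a resveratrol library moved the calls between resveratrol and obesity. Without resveratrol library 2, edgeR's adjusted p passed for 5 members, Adam8, Adam11, Adam12, Adam17 and Adam33, against 19.5% of all genes, and without resveratrol library 1 for 0 members, against 0.136%. Without both resveratrol library 1 and the control library, the count was 0 members against 0.334% of all genes. Between obesity and control, 11 members passed without resveratrol library 1, against 37.9% of all genes, and 10 without resveratrol library 2, against 37.3%.

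Resveratrol and control are compared with the same control library as above, so the differences are not independent of those between obesity and control. Adam8 was higher in resveratrol than in control by 6.73 on the log2 scale, Adam12 by 4.95, Adam23 by 4.39 and Adam19 by 2.63, and Adam7 differed by −13.86. DESeq2 called 8 members here, Adam3, Adam7, Adam8, Adam9, Adam12, Adam19, Adam23 and Adam28, against 12.5% of all genes, and edgeR's quasi-likelihood test called 0. At an unadjusted p under 0.05 edgeR counted 6 members higher, against 10.5% of all genes, and 4 lower, against 8.05%. Both resveratrol libraries lay above control for 10 members, against 37.7% of all genes, and below it for 9, against 41%. With 1 change to the fit, edgeR's adjusted p passed for 2 members without the filter on low counts, against 3.84% of all genes, for 8 without resveratrol library 1, against 30.7%, and for 9 without resveratrol library 2, against 17.2%.

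Genes that work with the ADAMs were read from lists by role, and none of them passed edgeR's test in any comparison. Regulators of ADAM10 and ADAM17 are the iRhoms, tetraspanins, inhibitors of the TIMP family and convertases that mature, carry or block the sheddases. Of 16 tested, 11 were higher and 5 lower in obesity than in control. Over all 24779 genes tested, 11613 were higher and 13049 lower. Sfrp1, a secreted Wnt antagonist that also inhibits ADAM10, measured 25.63 CPM in control, 3.443 and 3.428 in obesity and 51.88 and 47.5 in resveratrol. Sfrp1 was thus lower in both obesity libraries than in the other 3, with a log2 difference of −2.90 between obesity and control and a standard error of 0.279. It was higher in resveratrol than in obesity by 3.85 with a standard error of 0.263, and the edgeR adjusted p was 0.16 and 0.899. Timp3, the TIMP that inhibits ADAM17, was higher in obesity than in control by 2.00 on the log2 scale with a standard error of 0.563. Timp1, an inhibitor of ADAM10, differed by 2.02 with a standard error of 0.859, and Rhbdf2, the iRhom that carries ADAM17 in myeloid cells, by −0.56 with a standard error of 0.633.

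Of 34 shed substrates tested, 23 were higher and 11 lower in obesity than in control. Their median log2 difference was 1.56, beside −0.10 over all genes tested. Btc, a ligand of the epidermal growth factor receptor, differed by 6.08 with a standard error of 1.30, and Trem2, a receptor of macrophages, by 4.95 with a standard error of 1.30. Cd44, the hyaluronan receptor, differed by 4.57 with a standard error of 0.873, and Axl, a receptor tyrosine kinase, by 2.15 with a standard error of 0.380. Tnf itself was low, at 0.1395 CPM in control, 0.8347 and 1.904 in obesity and 0.5451 and 1.245 in resveratrol. Between resveratrol and obesity 17 substrates were higher and 17 lower, beside 13075 and 11172 of all genes tested. Cx3cl1, the membrane chemokine fractalkine, had the smallest unadjusted p there, with a log2 difference of 2.39 and a standard error of 0.792. It measured 56.63 CPM in control, 6.73 and 4.142 in obesity and 45.61 and 11.36 in resveratrol. Its difference between resveratrol and obesity thus rested for the most part on resveratrol library 1.

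The integrins that bind ADAM disintegrin domains had higher fitted levels in obesity than in control for 9 of 9 genes. Their median log2 difference was 2.10, beside −0.10 over all genes tested. For Itga9 the groups overlapped, with 12.87 CPM in control and 16.49 and 12.47 in obesity. Itga5, the alpha chain of the fibronectin receptor, measured 9.346 CPM in control, 82.74 and 112.9 in obesity and 149 and 101.9 in resveratrol. Of 13 maturation factors of sperm ADAMs, 9 were tested, and 1 was higher and 8 lower in obesity than in control. Some of these could pass the filter through the control library alone, so the count says nothing of the list. Rnase10, an epididymal protein needed for ADAM3 to stay on sperm, measured 2673 CPM in control, 0.9391 and 0.1428 in obesity and 0.5451 and 0.2723 in resveratrol. Ace, whose testis form releases and sorts sperm surface proteins and whose somatic form makes angiotensin II, had a log2 difference of −3.97 between obesity and control with a standard error of 0.683. The LGI ligands split evenly between obesity and control, with 2 higher and 2 lower. All 4 had higher fitted levels in resveratrol than in obesity, with a median log2 difference of 2.39 beside 0.05 over all genes. Their summed level was 13.98 and 11.85 CPM in obesity and 94.08 and 12.88 CPM in resveratrol, so the second resveratrol library lay within the obesity values and the difference came from the first. Lgi3 measured 15.76 CPM in control, 1.669 and 1.904 in obesity and 46.93 and 1.284 in resveratrol, and so it too was high in resveratrol library 1 and not in library 2.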

How the data were processed

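RNA of visceral adipose tissue was counted in 5 libraries. Per the submitters' processing notes, the authors used FastQC, featureCounts and genome build GRCm39, and the table they deposited gives unscaled counts per gene in whole numbers. For the aligner, annotation and strand setting, the sources used here name nothing. Symbols came from the reference tables, for 65.7% of 78334 identifiers.

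Genes were kept with filterByExpr (minimum count 10, total 15) and fitted in R 4.3.3 with edgeR 4.0.16 over all 5 libraries, which takes the spread of the single control library to equal that of the other groups. P-values were adjusted over all 24779 genes, and a standard error is the absolute log2 difference over the square root of F. DESeq2 1.42.0, limma 3.58.1, other scalings and filters, a replicate block and each library left out were tried. The code was tested on simulated data.

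The members and lists were chosen with earlier results of these data known. Members at 1 CPM or more in a library are named. In each list, up to 5 genes with the smallest unadjusted p could be named, besides Sfrp1, Timp1, Rhbdf2 and Tnf. Length is the exonic length in GENCODE M21 (GRCm38), used in place of the planned coding length. Intervals cover counting error only.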

Additional observations from a re-analysis of the deposited data

How the results depend on the processing

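With a single control library and 2 libraries in the other groups, counts of calls moved with the fit, and the cause was not tested. Without the filter on low counts, edgeR called 2 members between obesity and control and 2 between resveratrol and control, Adam19 and Adam23 in both, among 2575 and 1671 genes, and 25 genes between resveratrol and obesity. DESeq2 called 6 and 8 members in the first pair of comparisons, among 4524 and 3085 genes, and 219 genes between resveratrol and obesity, and limma-voom called 80 genes between resveratrol and control. With 1 library left out in turn, edgeR called 0 to 11 members and 0 to 9227 genes between obesity and control. The same ranges were 0 to 5 members and 0 to 4758 genes between resveratrol and obesity, and 0 to 9 members and 0 to 7469 genes between resveratrol and control. The largest counts came without resveratrol library 1, except between resveratrol and obesity and for the members between resveratrol and control, where they came without resveratrol library 2. Without both the control library and resveratrol library 1, a choice made after seeing the data, 66 genes and 0 members were called between resveratrol and obesity. With the replicate number as a block, 0 members were called in each comparison, and the deviations of same-numbered libraries had a correlation of 0.282 across genes, from 2 pairs that share only a number. In that block fit Adam33 turned to 0.05 between obesity and control, and Adam1b to 0.14 between resveratrol and control.

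Library totals as the scaling moved the median log2 difference of all genes between obesity and control by −0.12. No member turned direction under either other scaling. Other reversals were among these log2 differences, given as ranges over the libraries left out, with the library behind the turned sign. Between obesity and control, Adam2 ran from −0.99 without obesity library 1 to 0.76, and stood at −0.14 with limma-voom. Between resveratrol and obesity, Adam7 ran from −2.32 to 5.94 and Adam28 from −8.71 to 2.37, both highest without obesity library 1, and Adam7 stood at 0.43 without resveratrol library 2 and 0.72 with limma-voom. Adam1b ran from −0.51 to 1.44 and Adam10 from −0.59 to 0.00, turning without resveratrol library 1, with or without the control library. Adam5 ran from −0.62 to 0.73, Adam15 from −0.31 to 0.61 and Adam22 from −0.70 to 0.42, turning without resveratrol library 2, and Adam22 stood at 0.19 without obesity library 1. Between resveratrol and control, Adam1b ran from −1.30 to 0.66 without resveratrol library 2, and stood at 0.01 without the filter. Adam11 ran from −0.61 without resveratrol library 1 to 2.83. No value was made for Adam18 between resveratrol and obesity, both at 0 counts. The class medians were not recomputed for epididymal and sperm members, which passed the filter through few libraries.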

Other observations

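Adamdec1, a short soluble relative of the family that the symbol rule does not match, lies between Adam7 and Adam28 in RefSeq's gene order on chromosome 14. It had 339 counts in the control library, 51 and 0 in the obesity libraries and 10 and 0 in the resveratrol libraries, or 11.82, 2.661, 0, 0.4543 and 0 CPM. All 3 neighbours were thus highest in control, in both CPM and counts, and were at 0 counts in obesity library 2. In obesity library 1 their order by count was the reverse of that in control for the pair, with 16 counts of Adam7 and 86 of Adam28.

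Adam8 and Adam12 had a count ratio of 4.61 (exact 95% interval 4.31 to 4.94) and 4.05 (3.83 to 4.28) in the obesity libraries, and of 6.09 (5.04 to 7.40) and 5.95 (5.50 to 6.43) in the resveratrol libraries. The intervals cover counting error only, and the difference between the groups was not tested.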
